A study of Rattus norvegicus with 6 samples.

Results

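miR-139 is a microRNA whose hairpin lies in an intron of Pde2a, and its hairpin gives a 5p and a 3p product, miR-139-5p and miR-139-3p. These 2 names, listed as rno-miR-139-5p and rno-miR-139-3p, were taken from the 693 in the deposited table, in all 6 libraries, and both had enough reads to be among the 418 tested. They were chosen by the measured rise of miR-139-5p after lung ischemia reperfusion (IR) in these same libraries, which was known beforehand. Every value of IR against sham is therefore given as a description, and no p-value of that comparison is given for either arm.

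The libraries were made from lung tissue of male rats of the Sprague-Dawley strain, 7 to 8 weeks of age. In the IR group (n = 3) the left hilum was closed for 45 min under urethane anesthesia and ventilation, and blood flow was then restored. In the sham group (n = 3) the chest was opened in the same way without clamping. The sources used here give neither the time of reperfusion nor which lung or lobe was sampled. The study's text treats the libraries of a group as biological replicates, but the labels do not tie each to 1 animal, so that errors are the spread between these samples.

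A hairpin of this kind is cut first in the nucleus by Drosha and then in the cytoplasm by Dicer. One strand of the resulting duplex is usually kept in an Argonaute protein, where its bases 2 to 8, the seed, pair with target mRNAs, and the other strand is usually degraded. Pde2a encodes a phosphodiesterase that is stimulated by cGMP and breaks down both cAMP and cGMP, and in the lung it is known from endothelium. In human cells miR-139-5p is described as a miRNA that restrains growth and migration, with IGF1R, ROCK2 and CXCR4 among its reported targets. The 3p arm is less studied.

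Both mature sequences are shown because the values below belong to the opposite strands of one stem. They were taken from RefSeq on rat build GRCr8 and are written 5′ to 3′ with the seed in capitals.
miR-139-5p: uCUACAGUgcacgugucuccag
miR-139-3p: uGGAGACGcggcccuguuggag
The gene Mir139 is on the plus strand of chromosome 1, with miR-139-5p at chr1:165290865-165290886 and miR-139-3p at chr1:165290901-165290922 in GRCr8. The sources used here do not name the build to which the authors mapped. Both are 22 nt long and are separated by 14 nt within the hairpin of 68 nt. Folded with RNAfold, the hairpin had a predicted energy of -35.6 kcal/mol, and 19 of the 22 bases of miR-139-5p were paired with bases of miR-139-3p. Of the bases 2 to 8 of miR-139-5p, 6 were among these pairs. RefSeq's rat annotation places the gene inside Pde2a on the same strand.

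Of the 693 mature rat sequences in the RefSeq table, 0 shared bases 2 to 8 with miR-139-5p and 0 shared bases 2 to 7, and the same counts of 0 were found for miR-139-3p. Each arm is thus the only member of its seed family in that table. 570 of the 630 named miRNAs of the deposited table were found in it by name. No other name had counts within 5% or 2 reads of either arm in every library, so that no name stood out as listing the same reads.

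The sequencing depth was 6300841, 3775663 and 11248166 miRNA reads in IR replicates 1 to 3, and 7459979, 10718899 and 10302473 in sham replicates 1 to 3. Sham replicate 3 stood apart, since miR-21-5p took 24.2% of its reads, against 9.66% to 13.5% in the other 5 libraries. Levels are therefore given both as the deposited TPM, which are reads per 1000000 listed miRNA reads, and as CPM after TMM normalization, which corrects for such a shift. The TMM factor of sham replicate 3 was 0.867, and the other 5 factors lay between 0.929 and 1.06.

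miR-139-5p was an abundant miRNA of the lung. It had 5524, 3038 and 8626 reads in IR replicates 1 to 3, against 3952, 6165 and 4991 reads in sham replicates 1 to 3. In deposited TPM these were 877, 805 and 767 in the IR libraries, against 530, 575 and 484 in the sham libraries. All 3 IR libraries were above all 3 sham libraries, and the gap between the groups was wider than the range within either. By rank it was the 73rd, 75th and 82nd most abundant name of the IR libraries, against the 98th, 96th and 97th of the sham libraries.

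After TMM normalization miR-139-5p was at 834, 866 and 727 CPM in IR replicates 1 to 3, against 498, 547 and 559 CPM in sham replicates 1 to 3. The normalization changed the order within the sham group, since sham replicate 3 was the lowest of its group in TPM and the highest in CPM. The groups stayed apart on both scales. The mean was 809 ± 72.9 CPM after IR and 535 ± 32.3 CPM in sham (SD, n = 3 each), which gave a log2 fold change of 0.60 with a standard error of 0.13, or 1.51-fold. A share of 34.0% of the tested miRNAs also had IR and sham libraries that did not overlap, 17.2% with all IR libraries above.

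miR-139-3p, the other strand of the same stem, was a minor product. It had 77, 36 and 103 reads in IR replicates 1 to 3, against 61, 107 and 77 reads in sham replicates 1 to 3. In deposited TPM it was at 12.2, 9.53 and 9.16 in the IR libraries, against 8.18, 9.98 and 7.47 in the sham libraries. The groups overlapped, with sham replicate 2 above IR replicates 2 and 3. After TMM normalization the levels were 11.6, 10.3 and 8.68 CPM in the IR libraries, against 7.69, 9.49 and 8.63 CPM in the sham libraries, and again overlapped.

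The mean of miR-139-3p was 10.2 ± 1.47 CPM after IR and 8.60 ± 0.901 CPM in sham (SD, n = 3 each). Its log2 fold change was 0.24 with a standard error of 0.24, a difference no larger than its own error. Summed over a group, 216 reads of it were found after IR and 245 in sham. Per total reads of the group this was a ratio of 1.18 (95% exact interval 0.976 to 1.42). The interval pools the reads of a group, so it covers counting error only and leaves out the spread between libraries. The reads carry no molecular identifiers, so that PCR copies are counted as separate reads. For miR-139-5p the sums were 17188 reads after IR and 15108 in sham, and the same ratio was 1.52 with an interval of 1.49 to 1.55.

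**Figure D1:**
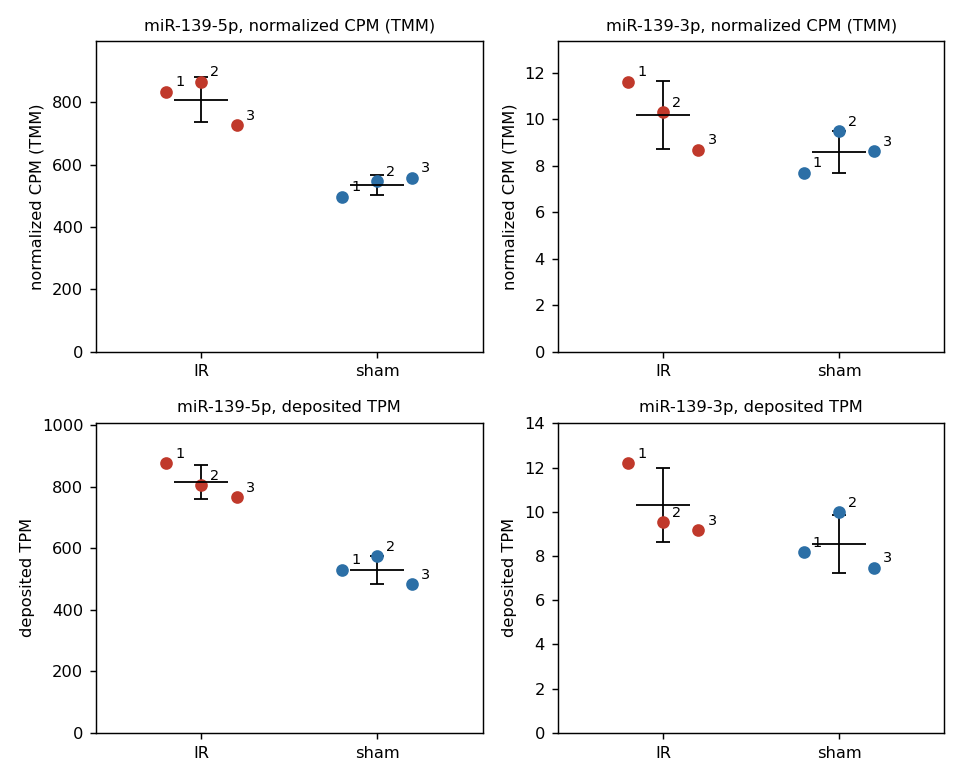
Level of miR-139-5p (left) and miR-139-3p (right) in the 3 IR and 3 sham libraries, as TMM-normalized CPM (top) and deposited TPM (bottom), with the replicate number beside each point. Bars are the mean and SD (n = 3 each); the IR and sham libraries do not overlap for miR-139-5p and overlap for miR-139-3p on both scales.

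Of the 2 arms, 1 was among the miRNAs called at an adjusted p under 0.05 by edgeR's quasi-likelihood test, namely miR-139-5p. Over all 418 tested miRNAs this share was 10.5%, with 7.89% higher and 2.63% lower. This call is how the miRNA came to be chosen, so nothing is read from it. Among the 33 higher miRNAs miR-139-5p had the smallest log2 fold change, with 0 of them below its value, and 2 had a mean level at or above its own, itself included. The other was miR-192-5p, a miRNA of gut, liver and kidney epithelium, whose log2 fold change was 1.02 with an error of 0.24. Over all tested miRNAs the median log2 fold change was -0.01, and 64 were at or above the value of miR-139-5p, while 131 were at or above that of miR-139-3p.

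The change of miR-139-5p was small, and so was its spread. Its coefficient of variation was 9.01% between the IR libraries and 6.04% between the sham libraries, where counting error alone gives 1.08% to 1.81% in a library. Its pooled within-group SD of log2(CPM + 1) was 0.11, and of the 168 tested miRNAs with a mean of at least 100 CPM, 21 had a smaller SD and the median was 0.20. For miR-139-3p the coefficients were 14.5% between the IR libraries and 10.5% between the sham libraries, against a counting error of 9.67% to 16.7% in a library. The spread of the 3p arm thus lay within what its read numbers alone give.

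**Figure D2:**
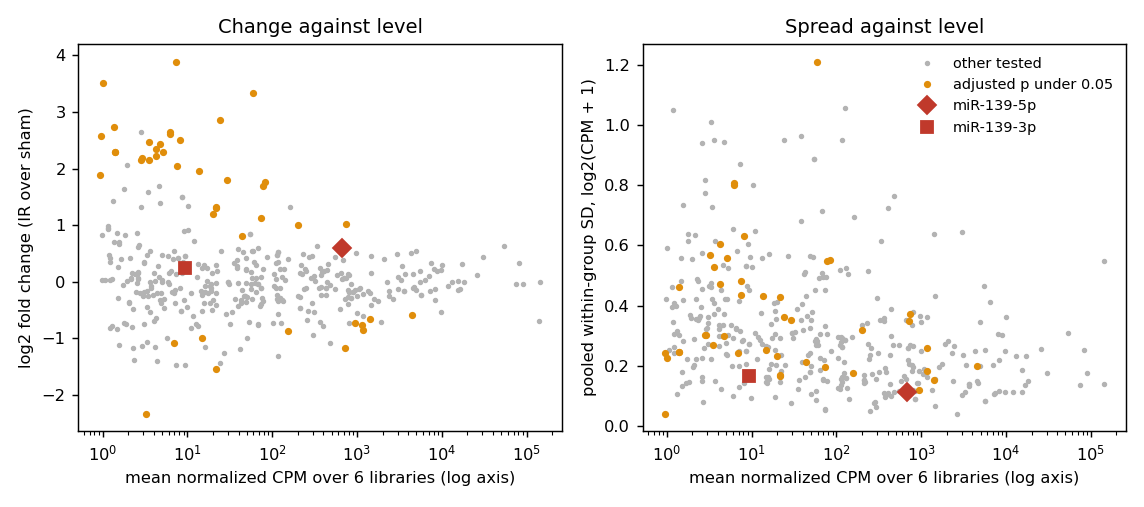
Log2 fold change of IR over sham (left) and pooled within-group SD of log2(CPM + 1) (right) against the mean normalized CPM over 6 libraries (log axis) for the 418 tested miRNAs. miR-139-5p (diamond, log2 fold change 0.60) is the smallest of the higher called miRNAs (orange) and lies at an SD of 0.11, and miR-139-3p (square) lies at 0.24 and 0.17.

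The call of miR-139-5p was lost in most fits with 5 libraries. In these fits the number of called miRNAs over the whole set ran from 2 to 57, against 44 with all libraries. Of the 6 subsets of 5 libraries it was called only in the one lacking sham replicate 2. The log2 fold change was 0.54 without IR replicate 1, IR replicate 2 or sham replicate 1, 0.62 without sham replicate 3 and 0.72 without IR replicate 3. The direction was the same in each. In the other 11 settings it was called in 10, and the exception was the fit with the replicate number as a block. All these fits use the libraries by which miR-139-5p was chosen, so its calls are a description and not a test. miR-139-3p was called in 0 of 6 and 0 of 11 fits, with log2 fold changes of 0.08 (without IR replicate 1) to 0.40 (without IR replicate 3).

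**Figure D3:**
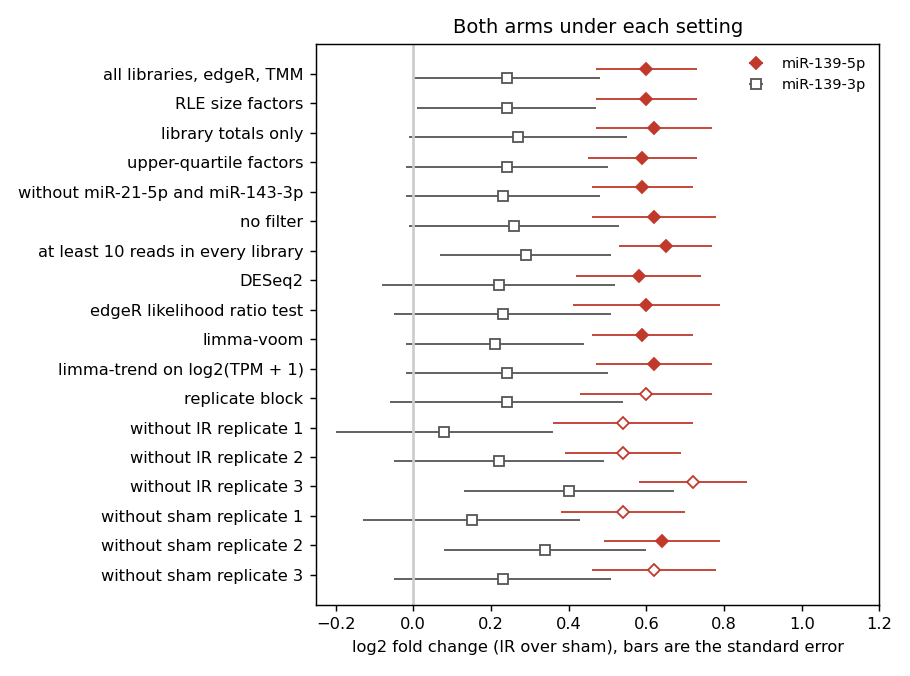
Log2 fold change of IR over sham for miR-139-5p (diamonds) and miR-139-3p (squares) under each setting, with the standard error as a bar. Filled symbols have an adjusted p under 0.05, given as a description. miR-139-5p runs from 0.54 to 0.72 and miR-139-3p from 0.08 to 0.40.

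Which strand of the stem dominated does not use the comparison of IR with sham, and was tested. The reads of miR-139-5p were 71.7, 84.4 and 83.7 times those of miR-139-3p in IR replicates 1 to 3, and 64.8, 57.6 and 64.8 times in sham replicates 1 to 3. The 5p arm was higher in 6 of 6 libraries, by 6.14 ± 0.22 on the log2 scale (SD, n = 6), or 70.5-fold (exact sign-flip permutation test, two-sided, p = 0.0312, the smallest p that 6 libraries allow). The ratio is within a library, so that no scaling enters it, and both arms have the same length. It is a ratio of reads, and how closely reads of different sequences follow their numbers of molecules was not tested.

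Such one-sided use of a hairpin was common in these lungs. Of 162 hairpins with both arms listed at 10 or more reads each, 98 had more reads of the 5p arm (60.5%), and the more abundant arm held a median of 95.4% of the reads. For miR-139 this was 98.6%, and 51 hairpins were more one-sided.

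The share of the 3p arm was 1.37%, 1.17% and 1.18% in IR replicates 1 to 3, against 1.52%, 1.71% and 1.52% in sham replicates 1 to 3. The groups did not overlap, but the single libraries did within their 95% exact (Clopper-Pearson) intervals. These ran from 0.822% to 1.72% over the IR libraries and from 1.16% to 2.06% over the sham libraries. How many other hairpins also had arm shares without overlap between the groups was not counted. On the log2 scale the ratio of 5p to 3p reads was 6.32 ± 0.13 after IR and 5.96 ± 0.10 in sham (SD, n = 3 each), a difference of 0.36. This difference holds the change by which miR-139-5p was chosen, so it is given without a test.

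**Figure D4:**
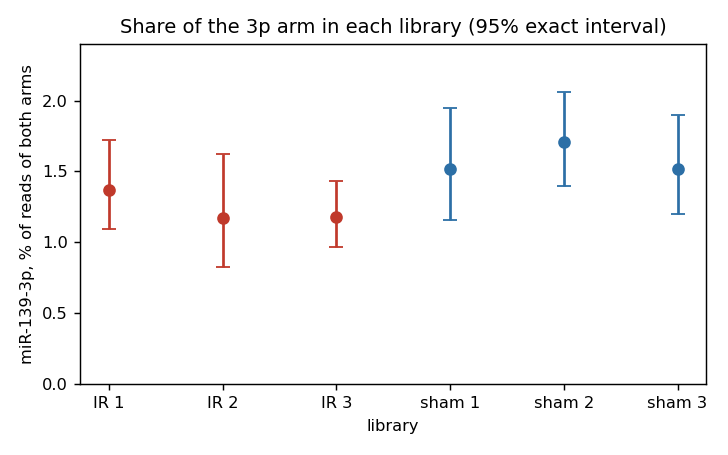
Reads of miR-139-3p as a percentage of the reads of both arms in each library, with the 95% exact interval for counting error. The IR libraries lie at 1.17% to 1.37% and the sham libraries at 1.52% to 1.71%, with overlapping intervals.

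The arms of other hairpins give the background for such a gap. Both arms were tested for 116 hairpins, and in 82 of them the log2 fold changes of the arms had the same sign, as in miR-139. In 5 hairpins both arms were called, in 10 one arm was called, as in miR-139, and in 101 neither was. The log2 fold changes of the arms of miR-139 differed by 0.36, the median difference over the 116 hairpins was 0.21, and 38 hairpins had a larger one.

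**Figure D5:**
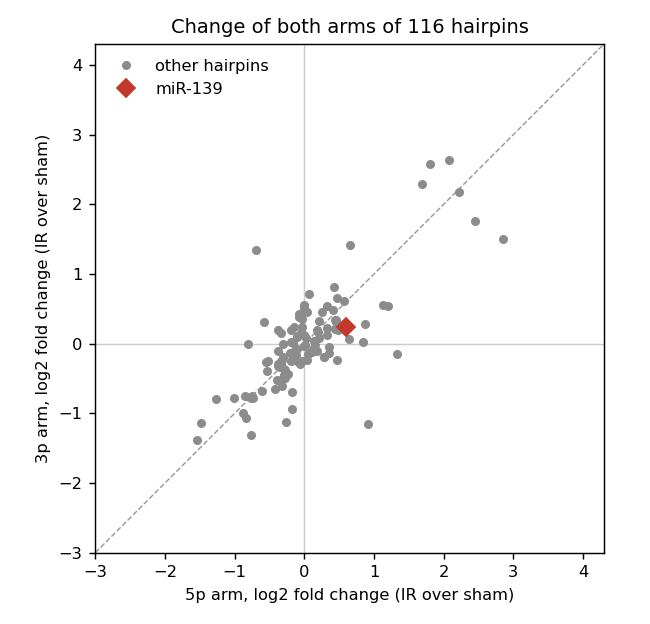
Log2 fold change of IR over sham of the 3p arm (vertical axis) against that of the 5p arm (horizontal axis) for the 116 hairpins with both arms tested; the dashed line marks equal change. miR-139 (diamond) lies at 0.60 and 0.24, below the dashed line and within the cloud of other hairpins.

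In the order of sham levels miR-139-5p was 96th. Next above it were miR-320-3p, miR-148b-3p and miR-423-5p, at 601 ± 49.2, 571 ± 88.0 and 561 ± 62.6 CPM in sham (SD, n = 3 each). Next below were miR-223-3p of myeloid cells at 507 ± 243, miR-192-5p at 488 ± 161 and miR-1b at 486 ± 35.1 CPM in sham (SD, n = 3 each). The sham ranges of all 6 overlapped with the 498 to 559 CPM of miR-139-5p, so the places in this order do not differ beyond the spread. Of these 6, only miR-192-5p was also called, where 10.5% of all tested miRNAs were called. It was at 992 ± 142 CPM after IR, against 488 ± 161 CPM in sham (SD, n = 3 each). miR-320-3p was at 782 ± 147 CPM after IR and 601 ± 49.2 CPM in sham (SD, n = 3 each).

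miR-139-3p was 281st in sham, between miR-187-3p at 9.07 ± 2.52 and miR-874-3p at 8.48 ± 0.105 CPM (SD, n = 3 each). The others next to it were miR-501-3p and miR-17-1-3p above, and miR-664-2-5p and miR-488-3p below. miR-17-1-3p, a minor product of the miR-17~92 cluster, was the called one among these 6, where 10.5% of all tested miRNAs were called. It was at 4.38 ± 1.24 CPM after IR and 9.58 ± 0.919 CPM in sham (SD, n = 3 each), with a log2 fold change of -1.09.

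Although no rat miRNA of the RefSeq table shares its seed, several carry a run of 6 bases of the start of miR-139-5p. Its 3 runs of 6 within bases 2 to 9 are CUACAG, then UACAGU, then ACAGUG. They were searched for in the first 10 bases of the 570 listed miRNAs found by name in the RefSeq table. Of the miRNAs with ACAGUG, miR-128-3p, miR-27b-3p and miR-27a-3p are shown, with the run in capitals, because they are abundant and their runs lie 1 base from or at the same place as in miR-139-5p.
miR-139-5p: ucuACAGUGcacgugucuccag
miR-128-3p: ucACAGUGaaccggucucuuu
miR-27b-3p: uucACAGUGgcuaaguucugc
miR-27a-3p: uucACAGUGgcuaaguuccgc
The run stands at bases 4 to 9 of miR-139-5p and of both miR-27 forms, and at bases 3 to 8 of miR-128-3p. A shared run of this kind is a property of the letters and does not make them one seed family.

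miR-128-3p, a miRNA best known from neurons, was at 447 ± 60.3 CPM after IR and 1000 ± 285 CPM in sham (SD, n = 3 each), a log2 fold change of -1.17. It went the other way from miR-139-5p. miR-27b-3p was at 12900 ± 2150 CPM after IR and 13000 ± 2050 CPM in sham, and miR-27a-3p at 4740 ± 979 CPM after IR and 5240 ± 1360 CPM in sham (SD, n = 3 each), neither of them called. The run UACAGU opens miR-101a-3p, miR-101b-3p, miR-144-3p and miR-582-5p, with log2 fold changes of 0.22, 0.00, -1.31 and -0.19, and none of these was called. miR-216a-3p and let-7f-2-3p, which hold ACAGUG and UACAGU, had 121 and 115 reads in all and were not called.

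The host gene itself was not measured, because the libraries hold small RNA. Pde4d, a phosphodiesterase specific for cAMP, is the other phosphodiesterase gene that hosts listed miRNAs on its own strand, namely both arms of miR-582. miR-582-3p was at 41.9 ± 3.82 CPM after IR and 49.7 ± 10.1 CPM in sham, and miR-582-5p at 10.3 ± 1.26 CPM after IR and 11.7 ± 3.68 CPM in sham (SD, n = 3 each). Their log2 fold changes of -0.24 and -0.19 were close to their standard errors of 0.21 and 0.28 and lay on the other side of 0 from both arms of miR-139.

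Of the 379 tested miRNAs with a gene in the RefSeq table, 145 lie inside a protein-coding gene on the same strand, as miR-139 does. Among these 145, 3 were higher (2.07%, against 7.89% of all tested miRNAs) and 3 were lower, where 2.63% of all tested miRNAs were lower. DESeq2 called 13 of them, 24 had an unadjusted p under 0.05, and the median log2 fold change was -0.02. Over all 418 tested miRNAs DESeq2 called 66, and 110 had an unadjusted p under 0.05. The 3 higher ones were miR-139-5p, miR-330-3p in Eml2 at 0.81 and miR-3571 in Mib1 at 1.31, and the counts of the last were within 5% or 2 reads of those of miR-1-3p in all 6 libraries, so that its host is uncertain. The 3 lower ones were both arms of miR-15b in Smc4, a chromosome condensation gene, with miR-15b-5p at -0.88, and miR-128-3p in R3hdm1 and Arpp21. These names were chosen after their values were seen. Of the 234 tested miRNAs that do not lie inside such a gene, 29 were higher and 6 were lower. Of all 418 tested miRNAs, 33 were higher and 11 were lower. Of these 234, 77 had an unadjusted p under 0.05, DESeq2 called 49, and the median was -0.01. These are counts of names and not of separate transcripts, since the arms of a hairpin are counted apart. Both arms of miR-127, miR-379, miR-382 and miR-411 were called higher and are not among the 145. A difference between hosted and other miRNAs was not tested.

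The pattern over the 6 libraries was compared by Pearson's r on log2(CPM + 1), with 417 other tested miRNAs. The libraries fall into 2 groups, so that any miRNA that differs between them has a high or low r, and r is a description only. Next to miR-139-5p were miR-330-3p (r = 0.974), miR-29b-5p (0.970), miR-29c-5p (0.968), miR-374-5p (0.965) and miR-493-3p (0.951). miR-330-3p followed it in rank through all 6 libraries, with Spearman's rho of 1.00, and r was 0.828 after the mean of each group was subtracted. It was at 55.8 ± 4.44 CPM after IR and 31.8 ± 5.94 CPM in sham (SD, n = 3 each). miR-374-5p was at 632 ± 57.5 CPM after IR and 467 ± 31.1 CPM in sham (SD, n = 3 each), close in level to miR-139-5p, and with a log2 fold change of 0.44 it was not called.

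The within-group r was 0.681 for miR-29b-5p and 0.606 for miR-29c-5p. The 5p arm held 13.5% of the reads of the miR-29b hairpin and 54.1% of those of miR-29c. For miR-493-3p, a miRNA of the imprinted Dlk1-Dio3 region, the within-group r was 0.388 and the read total over the 6 libraries was 42. miR-139-3p, the other arm of the same hairpin, was 65th in this order, with r = 0.779 over 6 libraries and 0.795 within groups. In total 19 miRNAs had r above 0.9, and 14 of these were among the called higher ones. Over all 418 tested miRNAs 7.89% were called higher. The count of 14 follows from the choice by r, since miR-139-5p itself differs between the groups.

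At the other end were miR-17-1-3p (r = -0.990), miR-26b-5p (-0.986), miR-181b-1-3p (-0.986), miR-3120 (-0.978) and miR-199a-3p (-0.956). miR-26b-5p, an abundant miRNA from an intron of Ctdsp1, was at 2370 ± 61.1 CPM after IR and 2910 ± 90.8 CPM in sham (SD, n = 3 each). miR-199a-3p of mesenchymal cells was at 1090 ± 127 CPM after IR and 1720 ± 157 CPM in sham (SD, n = 3 each), with a log2 fold change of -0.65. Its r was -0.605 within groups. These low values depend on the scaling, since with library totals only r was -0.591 for miR-26b-5p, -0.683 for miR-199a-3p and -0.842 for miR-17-1-3p.

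Whole lung holds many cell types, and in bulk samples a change in the number of cells of a type and a change of the RNA per cell cannot be told apart. The miRNAs of single cell types were therefore set beside miR-139-5p. Those of endothelium, miR-126a-3p and miR-126a-5p from the vascular gene Egfl7, had log2 fold changes of -0.03 and -0.01 and r with miR-139-5p of -0.095 and -0.169 over 6 libraries. Their summed level was 83200 to 105000 CPM after IR and 88100 to 111000 CPM in sham, so that it did not move with miR-139-5p. For the lists that follow, the background is the 418 tested miRNAs. Of these, edgeR called 44, DESeq2 called 66, and 110 had an unadjusted p under 0.05. For 34.0% of these 418, taken singly, the IR and sham libraries did not overlap, so a list without overlap does not stand out by that alone.

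The summed level of the epithelial list, 5 miRNAs of the miR-200 family, was 18700 to 19200 CPM after IR and 12900 to 15900 CPM in sham, without overlap. By edgeR 0 of its 5 members were called, with 2 at an unadjusted p under 0.05 and 1 called by DESeq2, and the median was 0.28. Its miR-200b-3p was at 5840 ± 336 CPM after IR and 3990 ± 700 CPM in sham (SD, n = 3 each), with r = 0.937 with miR-139-5p over 6 libraries, and miR-200a-3p was at 8270 ± 452 CPM after IR and 6550 ± 609 CPM in sham. The others were not alike, with log2 fold changes of 0.28 for miR-200c-3p, 0.12 for miR-429 and 0.00 for miR-141-3p, the last with r = -0.047. The lymphocyte list went the other way, at 960 to 1150 CPM after IR and 1680 to 1740 CPM in sham, with 1 of 2 lower (miR-150-5p, log2 fold change -0.77, r = -0.934) and miR-342-3p at -0.13. The list of myeloid cells and all leukocytes was at 1270 to 1540 CPM after IR and 1680 to 2760 CPM in sham, with 0 of 3 called by edgeR, 2 at an unadjusted p under 0.05 and 1 called by DESeq2. Its miR-142-5p was at -0.61 and miR-223-3p at -0.78 on the log2 scale, with r of -0.669 and -0.459 with miR-139-5p. None of these members was at 0 reads over the 6 libraries. Their part in the level of miR-139-5p was not tested.

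The other lists overlapped between the groups in their summed level. That of smooth muscle and fibroblasts had 1 of 7 lower (miR-199a-3p), with 3 at an unadjusted p under 0.05 and 2 called by DESeq2, and a median log2 fold change of -0.30. Its most abundant members miR-143-3p and miR-145-5p were at -0.01 and 0.04, while miR-214-3p was at -0.73 (r = -0.930 with miR-139-5p) and miR-199a-5p at -0.42. The ciliated airway and erythroid lists had 0 of 3 and 0 of 4 called by edgeR and 0 by DESeq2, with 0 and 2 at an unadjusted p under 0.05. Of the ciliated list miR-34c-5p was at 0.18, miR-34b-5p at 0.21 and miR-449a-5p at -0.72. All 4 erythroid miRNAs had log2 fold changes below 0, at -0.20 for miR-451-5p, -1.09 for miR-486, -1.31 for miR-144-3p and -0.77 for miR-144-5p, with a median of -0.93. The list of neural and neuroendocrine cells had 0 of 4 called by edgeR or DESeq2 and 0 at an unadjusted p under 0.05. All 4 had log2 fold changes above 0, with a median of 0.45. These were 0.85 for miR-9a-5p, 0.50 for miR-7a-5p, 0.40 for miR-375-3p and 0.03 for miR-9a-3p. Striated muscle had 1 of 4 higher, miR-1-3p at 1.31. The others were at -0.01 for miR-133a-3p, 0.05 for miR-133b-3p and -0.47 for miR-206-3p. The more abundant miR-1b, which is not in this list, was at -0.06. Of the hypoxia-induced arms of miR-210, miR-210-5p had 24 reads in all, too few for the test, and miR-210-3p was at 67.8 ± 3.83 CPM after IR and 69.4 ± 9.85 CPM in sham (SD, n = 3 each).

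Of the inflammation-responsive miRNAs 1 of 7 tested was lower, miR-146a-5p at -0.85, with 4 at an unadjusted p under 0.05, 2 called by DESeq2 and a median of -0.69. The most abundant, miR-21-5p and miR-146b-5p, were at -0.69 and 0.29 without being called. Among the rest miR-21-3p was at 1.34, miR-132-3p at -1.15 and miR-147 at -1.19, none of them called by edgeR. The 10 miRNAs that are often described beside miR-139-5p as restraining growth, such as miR-143-3p, miR-126a-3p, miR-145-5p and miR-34a-5p, had 0 called in either direction by edgeR or DESeq2, 0 at an unadjusted p under 0.05 and a median log2 fold change of -0.02, near the -0.01 of all tested miRNAs. Of these 10, 3 lay above 0.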

How the data were processed

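Small RNA from lung was sequenced in 3 IR and 3 sham libraries. The authors deposited whole read counts per miRNA and, beside them, TPM, which equal the counts per 1000000 listed miRNA reads of the library with no term for length. The submitters' processing notes name Bowtie. The sources used here do not name the genome build, the annotation, the counting tool or the handling of reads that match more than 1 miRNA. Groups were taken from the labels, and every value column matched a sample.

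The deposited counts went into edgeR 4.0.16 under R 4.3.3 (filterByExpr with a minimum count of 10 and a minimum total of 15, TMM, quasi-likelihood test of IR against sham), and adjusted after Benjamini-Hochberg over all 418 tested miRNAs with a threshold of 0.05. Standard errors were obtained by dividing each log2 fold change by the root of its F statistic. The test was checked on simulated data. The alternatives were other scalings and filters, DESeq2 1.42.0, limma 3.58.1, the likelihood ratio test, the replicate block and leaving out each library. The arms were compared by an exact sign-flip permutation test (Python 3.11.15, scipy 1.17.1), correlations used a pseudocount of 1, hairpins were folded with ViennaRNA 2.7.2 and figures drawn with matplotlib 3.10.9.

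Members, lists and the naming rule were chosen with earlier results of these data known. The rule named both arms, the 3 miRNAs next above and below each in sham level, the 5 most and 5 least alike, those with the same bases 2 to 8, those of phosphodiesterase host genes and the 2 most abundant of each list. Others were named after their values were seen. Host genes were found by position on the same strand in RefSeq's GRCr8 annotation. The qPCR and cell experiments are not analysed here.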

Additional observations from a re-analysis of the deposited data

How the results depend on the processing

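miR-139-5p was higher and the log2 fold change of miR-139-3p was above 0 under each of the 11 other settings and with each library left out. The log2 fold change of miR-139-5p was 0.58 to 0.65 over those settings and 0.54 to 0.72 with 1 library left out, and that of miR-139-3p was 0.21 to 0.29 and 0.08 to 0.40. The difference of the arm ratio, IR minus sham, was 0.38 on log2(TPM + 1) and 0.30 to 0.43 with 1 library left out. The excess of the 5p over the 3p arm was 5.99 on log2(TPM + 1) and 6.09 to 6.20 with 1 library left out, where 5 libraries cannot give an exact permutation p under 0.0625. The likeness of the arms was r = 0.656 to 0.874 with 1 library left out.

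The number of called miRNAs moved more, from 44 to 26 of 341 with at least 10 reads in every library and to 69 of 505 with DESeq2, and it was 2 to 57 with 1 library left out. With the replicate number as a block edgeR's quasi-likelihood test called 0 of 418, with 84 at an unadjusted p under 0.05 (110 without the block). miR-139-5p was then at 0.60, miR-139-3p at 0.24 and the arm difference at 0.36. The labels do not say whether the numbers pair the libraries. Same-numbered IR and sham libraries deviated from their group means with r of -0.234, -0.387 and -0.183, and other pairs with r of -0.102 to 0.308. These values show no likeness by number, but with 3 libraries a group they cannot exclude a pairing. With 36 to 107 reads a library, miR-139-3p is limited by depth.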
